A study of Mus musculus with 6 samples.

Results

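The energy metabolism of cultured endothelial progenitor cells (EPCs) was examined through 31 genes: the enzymes and transporters of glycolysis, 4 enzymes of the pentose phosphate pathway, and subunits, oxygen sensors and targets of the hypoxia-inducible factors (HIFs). The genes were listed by symbol for their place in these pathways, and all 31 were found among the 21965 genes of the count table. Bone marrow came from male C57BL/6J mice (C57BL/6 in the labels) that had arrived at 11 weeks of age and acclimated for 1 week. They then breathed concentrated ambient fine particles (CAP), at a mean of 67 µg/m3, or HEPA-filtered air for 6 h per day over 30 days. There were 3 mice per group (CAP replicates 1 to 3, air replicates 1 to 3), and each was sequenced as its own poly-A mRNA library of cells grown for 10 days (by the methods) or 12 days (by the labels). Because the 3 mice of a group were housed in 1 cage, the effect of the cage and that of CAP cannot be told apart. The marrow was collected after the last exposure.

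Glycolysis splits glucose into pyruvate in the cytosol and yields ATP without oxygen, and lactate dehydrogenase turns the pyruvate into lactate, which monocarboxylate transporters carry out of the cell. The pentose phosphate pathway branches off at glucose 6-phosphate and gives NADPH for reductive reactions and ribose for nucleotides. When oxygen is low, prolyl hydroxylases no longer mark the HIF alpha subunits for degradation, and HIF binds the short motif ACGTG or GCGTG near its targets, many of which are glycolytic genes. Endothelial cells and activated macrophages both draw much of their ATP from glycolysis.

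Each library held 28713206 to 30446171 counts, and the 31 genes took 0.699% to 0.942% of them. Levels are given as normalized counts, which are counts divided by the size factor of the library (relative log expression, RLE). The labelled cell type was only partly borne out by its markers: the 10 endothelial markers had a median level of 32.0 normalized counts per kilobase of exon in CAP and 40.1 in air, while the 10 macrophage markers had 5464 in CAP and 7350 in air. Among the endothelial markers, Tek, the angiopoietin receptor, was at 0 in CAP replicates 1 and 2, and Cldn5 and Erg were at 0 in CAP replicate 2. Of the 10, Kdr and Eng had a positive log2 FC and 8 a negative one, and CAP replicate 2 was the lowest library for 7. The median log2 FC of the 10 was -1.37, and -1.02 without CAP replicate 2. In 3 of them every CAP library lay below every air library, against 8.46% of all tested genes. The sum of the 10 was 2799 to 3445 normalized counts in CAP and 2856 to 4979 in air. Lymphoid markers were near 0 in every library. The libraries were bulk cultures, so that fewer cells of a type and less RNA per cell cannot be told apart in any of the values below.

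None of the 31 genes passed an adjusted p-value of 0.05 in either direction by edgeR's quasi-likelihood test with Benjamini-Hochberg adjustment over the 14792 genes that reached 10 counts in total, as all 31 did. The lowest adjusted p among them was 0.468. The share of all tested genes that passed was 0.0% higher and 0.0% lower. By limma-voom it was also 0.0% and 0.0%, and by DESeq2 it was 0.149% higher and 0.0135% lower, with none of the 31 among them. At an unadjusted p under 0.05, edgeR placed 2 of the 31 higher (Eno1 and Pkm) and 1 lower (Epas1), beside 5.89% of all tested genes higher and 4.68% lower. In 3 of the 31 (Eno1, Pkm and Pfkp) every CAP library lay above every air library, which was so for 8.44% of all genes, and in 0 of the 31 did every CAP library lie below, against 8.46% of all genes. The log2 fold change (FC), CAP minus air, was positive for 18 genes and negative for 13, and its median was 0.056. With 1 library left out, this median ranged from -0.054 (without CAP replicate 1) to 0.13 (without CAP replicate 3), and it was also negative without air replicate 3. Of all tested genes, 48.8% had a positive and 51.2% a negative value, with a median of -0.0084.

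**Figure D1:**
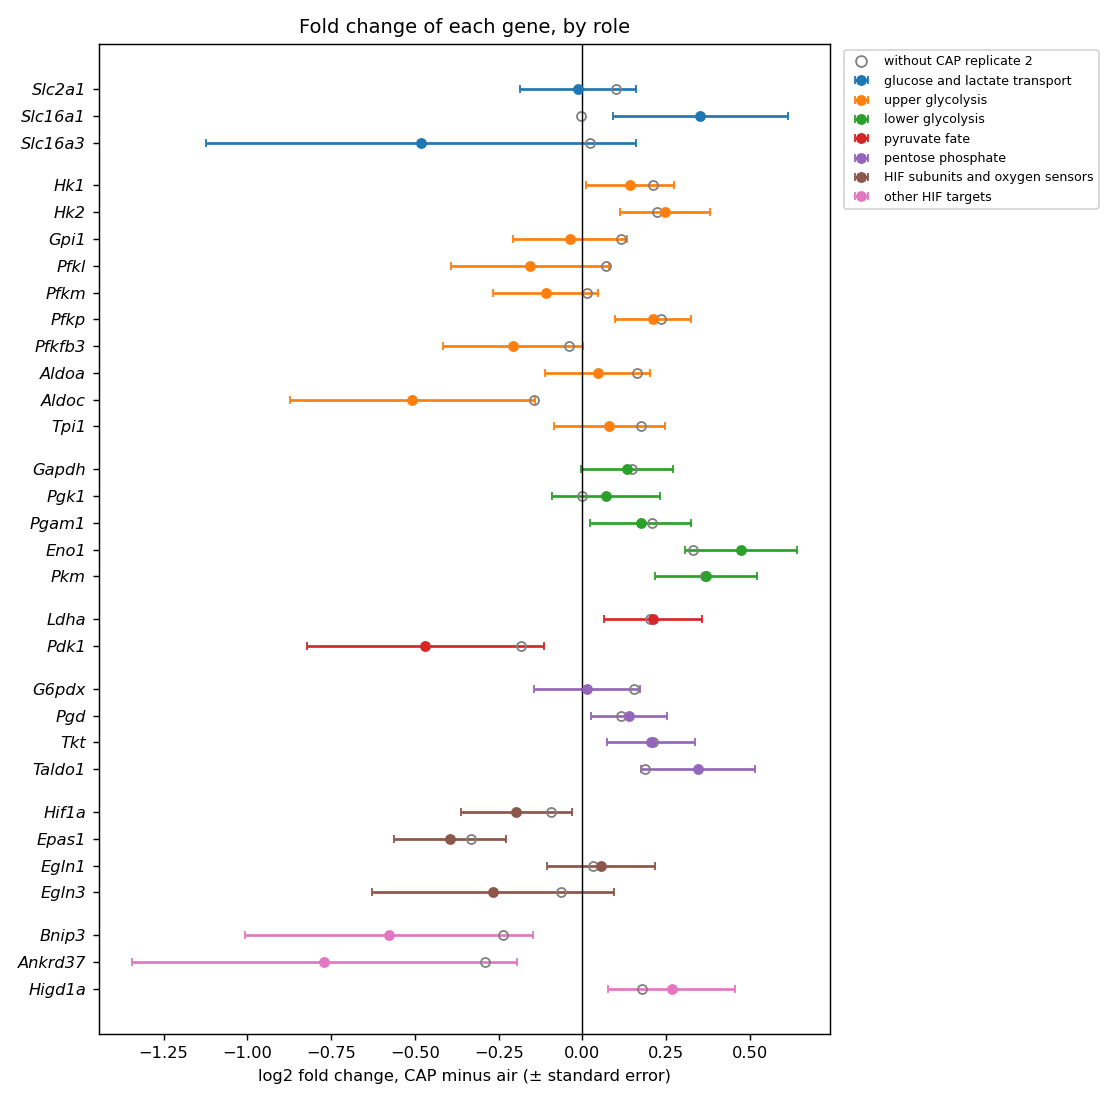
Fold change of each of the 31 genes. The x axis is the log2 FC, CAP minus air, with bars of 1 standard error from edgeR (3 CAP and 3 air libraries), and open circles give the value without CAP replicate 2. The genes are grouped by role from top to bottom. The filled points run from -0.77 for Ankrd37 to 0.47 for Eno1.

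The 2 genes of lowest p among the 31 lay in the later steps of glycolysis. All 5 genes of lower glycolysis had a positive log2 FC, with a median of 0.17, and all 5 had their lowest level in air replicate 3. That library was the lowest for 12 of the 31 genes and for 2182 of the 14792 tested genes. Without air replicate 3 the median of lower glycolysis was 0.099, and the log2 FC of Pgk1 was -0.058. Eno1 encodes alpha-enolase, which makes phosphoenolpyruvate. Its level was 12215, 13937 and 9248 normalized counts in CAP replicates 1, 2 and 3, against 8852, 9172 and 7490 in air replicates 1, 2 and 3. The groups did not overlap, but the gap was narrow: CAP replicate 3 stood just above air replicate 2. The mean was 11800 ± 2372 in CAP and 8505 ± 893 in air (SD, n = 3 each), a log2 FC of 0.47 (SE 0.17), with an unadjusted p of 0.021 and an adjusted p of 0.468 by edgeR. DESeq2 gave Eno1 an adjusted p of 0.276 over all libraries. Of its 2 runs with a library left out, both chosen after the data were seen, the one without CAP replicate 3 called Eno1 (log2 FC 0.62, adjusted p 0.00903), as it did 2.93% of the 14632 genes it tested in that direction, and the one without CAP replicate 2 did not. In edgeR with 1 library left out, the log2 FC of Eno1 ranged from 0.33 (without CAP replicate 2, its highest library) to 0.62 (without CAP replicate 3). Over all alternatives its adjusted p ranged from 0.00903 to 0.851.

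Pkm encodes pyruvate kinase of muscle and most dividing cells, the last step of glycolysis. It had 47719, 43487 and 39562 normalized counts in CAP, against 37650, 34905 and 28688 in air. Again every CAP library lay above every air library, and air replicate 3 was the lowest of the 6. The mean was 43589 ± 4079 in CAP and 33748 ± 4592 in air (SD, n = 3 each), a log2 FC of 0.37 (SE 0.15, unadjusted p 0.039, adjusted p 0.468 by edgeR). Without CAP replicate 2 the value was 0.37 as well, but it was 0.27 without air replicate 3 and 0.30 without CAP replicate 1. The highest value with 1 library left out was 0.45, without air replicate 1.

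Gapdh encodes glyceraldehyde 3-phosphate dehydrogenase and is often used as a control gene. Its level was 22461, 20051 and 19327 normalized counts in CAP and 20451, 19869 and 16075 in air. The 2 groups overlapped, and only air replicate 3 stood clearly below the rest. The log2 FC of Gapdh was 0.13 (SE 0.14, adjusted p 0.708 by edgeR) and 0.033 without air replicate 3. Reads of Gapdh are uncertain beyond this spread, because 93 annotated pseudogenes match it at 95% identity or more over at least 75 bases and the treatment of multi-mapped reads is not given in the sources used here. Ldha had 8 such copies, Pgk1 4, and Eno1, Pkm and Bnip3 3 each. Of the other lower glycolysis genes, Pgam1, phosphoglycerate mutase, averaged 2035 ± 320 normalized counts in CAP and 1804 ± 181 in air, and Pgk1, phosphoglycerate kinase, averaged 4115 ± 452 in CAP and 3918 ± 756 in air (SD, n = 3 each). Both overlapped between the groups.

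**Figure D2:**
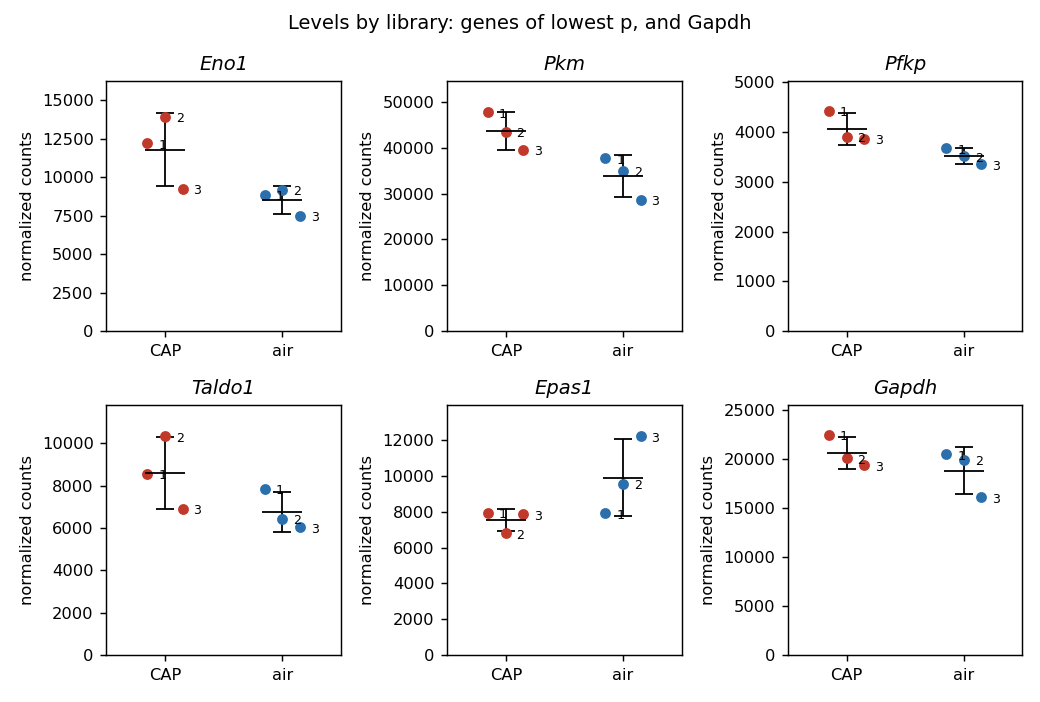
Levels of the 5 genes of lowest p and of Gapdh in each library. The y axes are normalized counts and start at 0, the numbers mark the replicates, and the bars give the mean and SD of 3 libraries. Eno1, Pkm and Pfkp show every CAP library above every air library, Epas1 has its highest level, 12221, in air replicate 3, and the groups of Gapdh overlap.

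Upper glycolysis was divided, with 5 genes of positive and 5 of negative log2 FC and a median of 0.0043. Pfkp encodes the platelet form of phosphofructokinase, the committing step. It had 4432, 3899 and 3864 normalized counts in CAP, against 3673, 3515 and 3355 in air. The CAP libraries all lay above the air libraries, with little spread inside either group. Its log2 FC was 0.21 (SE 0.11, adjusted p 0.497 by edgeR), and it was 0.23 without CAP replicate 2 and 0.14 without CAP replicate 1. Hk2, the inducible hexokinase that traps glucose in the cell, had 3442, 3335 and 2999 normalized counts in CAP, against 2440, 3171 and 2638 in air. Only air replicate 2 overlapped the CAP libraries. The log2 FC of Hk2 was 0.25 (SE 0.13, adjusted p 0.502 by edgeR).

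Aldoc, the brain-type aldolase, had a negative log2 FC that rested mainly on 1 library. It had 1324, 433 and 1379 normalized counts in CAP, against 1610, 1629 and 1222 in air. CAP replicates 1 and 3 lay within the range of the air libraries, and CAP replicate 2 alone was far below. Its log2 FC was -0.51 (SE 0.37, adjusted p 0.588 by edgeR) and -0.14 without that library. Pfkl, the liver form of phosphofructokinase, showed the same shape, with 5692, 2901 and 4779 normalized counts in CAP, against 4599, 5921 and 4379 in air. Here the log2 FC of -0.16 (SE 0.24) turned to 0.070 without CAP replicate 2. Pfkfb3, which makes the activator of phosphofructokinase, averaged 1414 ± 335 normalized counts in CAP and 1633 ± 311 in air (SD, n = 3 each), and CAP replicate 2 was again its lowest library. The remaining genes of this list, Hk1, Gpi1, Pfkm, Aldoa and Tpi1, had log2 FCs from -0.11 (Pfkm) to 0.14 (Hk1), and in each of them the groups overlapped.

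Scaled by exon length, the most abundant of the 31 genes was Aldoa, the general aldolase, at 16957 normalized counts per kilobase in CAP and 16434 in air. Pkm followed with 16771 in CAP and 12985 in air, Gapdh with 13788 in CAP and 12574 in air, and Ldha with 11286 in CAP and 9749 in air. The least abundant in CAP were Ankrd37, at 144 in CAP and 246 in air, Slc16a3, at 156 in CAP and 219 in air, and Egln3, at 169 in CAP and 203 in air. Within the aldolases, Aldoc made up 2.21%, 1.03% and 2.63% of the summed level per kilobase in CAP, against 3.10%, 3.04% and 2.68% in air. Among hexokinases the largest share per kilobase was that of Hk3, the form typical of myeloid cells, with 60.1 ± 1.1% in CAP and 62.5 ± 0.43% in air (SD, n = 3 each), while Hk2 held 13.8 ± 1.1% in CAP and 12.4 ± 1.8% in air. The share of Pfkp among the 3 phosphofructokinases was 35.0%, 46.0% and 35.1% in CAP, against 34.2%, 29.6% and 33.5% in air. The high share in CAP replicate 2 went with its low level of Pfkl.

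At the branch point of pyruvate, Ldha encodes the lactate dehydrogenase subunit that favours lactate. It had 23677, 21511 and 18971 normalized counts in CAP, against 18481, 20908 and 16036 in air. The groups overlapped through air replicate 2. For Ldha the log2 FC was 0.21 (SE 0.15, adjusted p 0.576 by edgeR). Pdk1, a kinase that switches off pyruvate dehydrogenase and so keeps pyruvate out of the citric acid cycle, had 1924, 737 and 1356 normalized counts in CAP, against 1449, 2670 and 1446 in air. The spread of Pdk1 lay in CAP replicate 2 at the bottom and air replicate 2 at the top, with the other 4 libraries between them. This gave a log2 FC of -0.47 (SE 0.35, adjusted p 0.602 by edgeR), which was -0.18 without CAP replicate 2 and -0.11 without air replicate 2.

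All 4 pentose phosphate enzymes had a positive log2 FC, with a median of 0.17, and none passed the test. Taldo1, transaldolase of the non-oxidative branch, had 8573, 10337 and 6905 normalized counts in CAP, against 7847, 6448 and 6040 in air. Only CAP replicate 3 lay inside the range of the air libraries. Its log2 FC was 0.34 (SE 0.17, adjusted p 0.479 by edgeR) and 0.19 without CAP replicate 2, its highest library. Tkt, transketolase of the same branch, had 16035, 14951 and 14616 normalized counts in CAP, against 15265, 12256 and 12075 in air. Air replicate 1 lay among the CAP libraries and the other two air libraries below them. The log2 FC of Tkt was 0.20 (SE 0.13, adjusted p 0.555 by edgeR). In the oxidative branch, Pgd, 6-phosphogluconate dehydrogenase, averaged 12176 ± 399 normalized counts in CAP and 11052 ± 860 in air, and G6pdx, the X-linked glucose 6-phosphate dehydrogenase that controls entry to the pathway, averaged 7918 ± 1464 in CAP and 7848 ± 769 in air (SD, n = 3 each). The log2 FC was 0.14 (SE 0.11) for Pgd and 0.013 (SE 0.16) for G6pdx.

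Both HIF subunits had a negative log2 FC. Epas1 encodes HIF-2 alpha, the subunit of endothelial cells and many macrophages. It had 7943, 6811 and 7854 normalized counts in CAP, against 7927, 9580 and 12221 in air. The groups touched at 1 point only, with air replicate 1 just under CAP replicate 1, and air replicate 3 was far above the rest. Its log2 FC was -0.39 (SE 0.17), with an unadjusted p of 0.043 and an adjusted p of 0.468 by edgeR, and without air replicate 3 it was -0.21. The 10 endothelial markers summed to 2799 to 3445 normalized counts in CAP and 2856 to 4979 in air, with the highest sum also in air replicate 3. The 10 stromal markers also had their highest sum, 208272, in that library, against 131544 in air replicate 1 and 142831 in air replicate 2. The part of endothelial or stromal cells in the level of Epas1 was not tested.

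Hif1a, the subunit that drives most glycolytic targets, had 4428, 3990 and 5799 normalized counts in CAP, against 4912, 6209 and 5181 in air. The groups overlapped widely. For Hif1a the log2 FC was -0.20 (SE 0.16, adjusted p 0.640 by edgeR). Epas1 made up 63.9%, 62.8% and 57.2% of the summed level per kilobase of the 2 subunits in CAP, against 61.4%, 60.4% and 70.0% in air. Of the prolyl hydroxylases that mark the subunits, Egln1, the main oxygen sensor, averaged 1443 ± 158 normalized counts in CAP and 1388 ± 246 in air (SD, n = 3 each). Egln3, itself a HIF target, had 656, 309 and 381 normalized counts in CAP, against 419, 817 and 386 in air. Air replicate 2 stood above all other libraries of Egln3, and its log2 FC of -0.27 (SE 0.36) was 0.16 without that library.

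The widest spread between libraries was that of Slc16a3, Ankrd37 and Bnip3, at 3.79, 3.76 and 2.37 log2 units from lowest to highest. Not every HIF target spread so widely, as Higd1a spanned 0.76. The upstream sequences of 4 genes of wide spread are shown beside those of 3 glycolytic genes that were steadier, so that the HIF motif can be read in both. The motif was common in the set: 28 of the 30 genes with a window (93.3%) held it in at least 1 of their windows, against 41.5% of all genes with one. Whether it differed between genes of wide and of narrow spread was not tested. Aldoc and Pdk1 spanned more log2 units (1.91 and 1.85) than Egln3 (1.40) but are not shown. GCGTG stood in windows of both, and ACGTG in none. Pgk1 and Hk2, also not shown, were steady at 0.56 and 0.50 log2 units and held 2 ACGTG each. The 7 sequences were picked after the values were seen, so no difference in ACGTG between wide and narrow spread can be read from them. Each is the 250 bases before the RefSeq start (GRCm38.p6) that lies nearest to the annotated gene start, 5′ to 3′ on the strand of the gene, with every ACGTG or GCGTG on either strand in capitals (CACGT and CACGC are these motifs on the other strand, and CACGTG holds ACGTG on both).
Bnip3: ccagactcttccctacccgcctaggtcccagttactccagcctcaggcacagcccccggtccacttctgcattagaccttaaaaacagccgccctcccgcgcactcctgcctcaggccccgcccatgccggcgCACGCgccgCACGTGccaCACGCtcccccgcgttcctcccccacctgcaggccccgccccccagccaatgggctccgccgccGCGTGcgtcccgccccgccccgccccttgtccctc
Ankrd37: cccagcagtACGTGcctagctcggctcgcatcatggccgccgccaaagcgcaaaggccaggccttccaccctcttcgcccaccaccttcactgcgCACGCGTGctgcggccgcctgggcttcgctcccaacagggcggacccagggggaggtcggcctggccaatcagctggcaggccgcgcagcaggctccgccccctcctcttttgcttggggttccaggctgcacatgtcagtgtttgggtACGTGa
Slc16a3: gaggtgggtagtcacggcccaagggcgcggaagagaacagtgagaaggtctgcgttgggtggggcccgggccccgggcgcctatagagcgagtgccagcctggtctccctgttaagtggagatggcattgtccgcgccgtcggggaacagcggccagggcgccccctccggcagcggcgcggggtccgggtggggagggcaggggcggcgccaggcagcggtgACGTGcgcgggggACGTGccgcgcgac
Egln3: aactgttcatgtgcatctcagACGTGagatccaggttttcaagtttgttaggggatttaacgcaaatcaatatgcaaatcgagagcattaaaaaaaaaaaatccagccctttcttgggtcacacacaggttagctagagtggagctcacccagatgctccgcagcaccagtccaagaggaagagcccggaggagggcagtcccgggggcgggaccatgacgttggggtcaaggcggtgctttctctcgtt
Eno1: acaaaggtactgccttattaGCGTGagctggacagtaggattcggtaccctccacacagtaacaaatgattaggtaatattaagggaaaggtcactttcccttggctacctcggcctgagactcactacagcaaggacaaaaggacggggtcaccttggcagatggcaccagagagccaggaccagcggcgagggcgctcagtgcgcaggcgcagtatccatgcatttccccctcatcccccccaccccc
Pkm: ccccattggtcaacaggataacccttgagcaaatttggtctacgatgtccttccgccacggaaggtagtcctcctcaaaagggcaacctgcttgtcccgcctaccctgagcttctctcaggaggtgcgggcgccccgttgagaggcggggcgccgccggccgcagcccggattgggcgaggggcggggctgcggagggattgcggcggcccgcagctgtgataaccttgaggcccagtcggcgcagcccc
Ldha: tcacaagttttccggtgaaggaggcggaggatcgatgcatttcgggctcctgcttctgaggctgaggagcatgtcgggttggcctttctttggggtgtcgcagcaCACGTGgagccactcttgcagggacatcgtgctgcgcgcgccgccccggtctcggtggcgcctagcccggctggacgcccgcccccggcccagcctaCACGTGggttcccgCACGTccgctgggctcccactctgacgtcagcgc

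These windows lie at chr7:138909507-138909756 (minus strand) for Bnip3, chr8:45999851-46000100 (minus strand) for Ankrd37, chr11:120948817-120949066 (plus strand) for Slc16a3, chr12:54203875-54204124 (minus strand) for Egln3, chr4:150236458-150236707 (plus strand) for Eno1, chr9:59656326-59656575 (plus strand) for Pkm and chr7:46845554-46845803 (plus strand) for Ldha. That of Bnip3 carried 2 ACGTG and 3 GCGTG, that of Ankrd37 2 of each, that of Slc16a3 2 ACGTG and that of Egln3 1 ACGTG. The window of Eno1 carried 1 GCGTG, that of Ldha 5 ACGTG, of which 4 stand in 2 CACGTG, and that of Pkm none. The RefSeq starts used for Ankrd37 and Ldha lie 5857 and 4329 bases downstream of where GENCODE begins these genes. Of the 31 genes, 30 had windows in the RefSeq table, 44 in all, and Epas1 did not. ACGTG stood in 43.2% of the 44 windows, against 16.6% of all 32851 windows of the same length, GCGTG in 56.8% against 28.2%, and CACGTG in 13.6% against 6.02%. At least 1 of ACGTG and GCGTG stood in 81.8% of the 44 windows and 38.6% of all windows. The windows of the 31 genes were also richer in CG, a dinucleotide that both motifs hold, with a median of 14.5 against 6 in all windows. A match describes the letters only, and binding was not measured.

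Ankrd37, a small ankyrin protein long used as a read-out of HIF, had 193, 24.9 and 182 normalized counts in CAP, against 165, 351 and 169 in air. CAP replicates 1 and 3 and air replicates 1 and 3 lay close together, CAP replicate 2 far below them and air replicate 2 far above. Its log2 FC of -0.77 was the most negative of the 31, yet the SE was 0.57 and the adjusted p 0.598 by edgeR. Bnip3, a mitochondrial protein that marks mitochondria for autophagy, repeated this order, with 1482, 488 and 1240 normalized counts in CAP, against 1103, 2524 and 1163 in air (log2 FC -0.58, SE 0.43, adjusted p 0.597 by edgeR). Without CAP replicate 2 the values were -0.29 for Ankrd37 and -0.24 for Bnip3, and without air replicate 2 they were -0.32 for Ankrd37 and -0.081 for Bnip3.

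Slc16a3 encodes MCT4, the monocarboxylate transporter that exports lactate from highly glycolytic cells. It had 1201, 103 and 783 normalized counts in CAP, against 723, 1436 and 760 in air. The highest CAP library held 11.7 times the lowest, and a range this wide within CAP was found in 0.67% of the 11127 genes that averaged at least 100 normalized counts. The corresponding ratio was 7.75 for Ankrd37 (1.13% of these genes), 3.18 for Aldoc (4.06%), 3.03 for Bnip3 (4.46%) and 2.61 for Pdk1 (6.54%). It was less unusual for Egln3 (2.12, 11.2%), Pfkl (1.96, 14.0%), Pfkfb3 (1.63, 24.8%) and Hif1a (1.45, 36.3%). The log2 FC of Slc16a3 was -0.48 (SE 0.64, adjusted p 0.773 by edgeR), and it was 0.022 without CAP replicate 2.

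Slc16a1, which encodes MCT1, the transporter of wider tissue range, had 704, 1262 and 680 normalized counts in CAP, against 678, 820 and 573 in air. CAP replicate 2, the lowest library for Slc16a3, was the highest for Slc16a1. Its log2 FC was 0.35 (SE 0.26, adjusted p 0.597 by edgeR) and about 0 (-0.0033) without that library. Slc16a3 thereby made up 62.9%, 7.49% and 53.4% of the summed level per kilobase of both transporters in CAP, against 51.5%, 63.5% and 56.9% in air. Slc2a1, which encodes the glucose transporter GLUT1, averaged 1564 ± 322 normalized counts in CAP and 1580 ± 192 in air (SD, n = 3 each), with a log2 FC of -0.014 (SE 0.17).

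Higd1a, a HIF target of the mitochondrial inner membrane, did not share the low level in CAP replicate 2. It had 727, 787 and 609 normalized counts in CAP, against 660, 641 and 465 in air. CAP replicate 2 was its highest library, and the groups overlapped through CAP replicate 3. The log2 FC was 0.27 (SE 0.19, adjusted p 0.582 by edgeR).

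**Figure D3:**
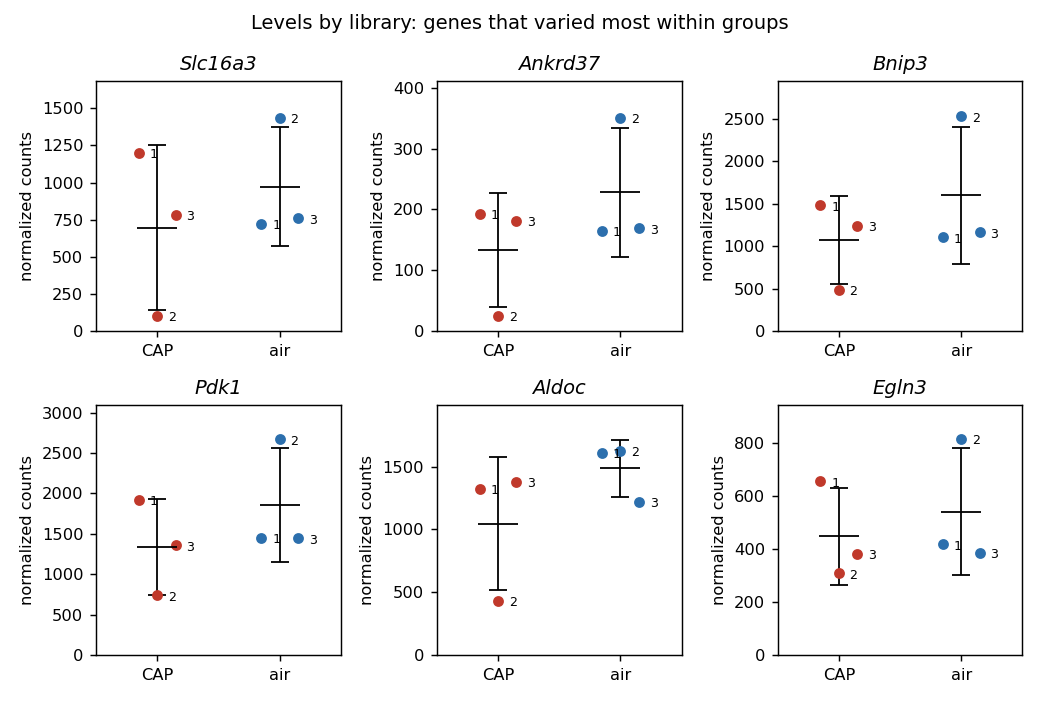
Levels of 6 genes with wide spread within groups. The y axes are normalized counts and start at 0, the numbers mark the replicates, and the bars give the mean and SD of 3 libraries. In each panel CAP replicate 2 is the lowest of the 6 libraries and air replicate 2 the highest, as for Slc16a3 with 103 and 1436.

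The low level in CAP replicate 2 and the high level in air replicate 2 recurred in other genes of the set. Of the 31 genes, 15 (48.4%) had their lowest level in CAP replicate 2, against 33.6% of all tested genes, and 11 (35.5%) had their highest in air replicate 2, against 17.6% of all genes. Both held in 9 of the 31 genes (29.0%), against 6.50% of all tested genes. The 9 were Slc16a3, Pfkl, Pfkfb3, Aldoc, Pdk1, Hif1a, Egln3, Bnip3 and Ankrd37. In none of the 5 genes of lower glycolysis was CAP replicate 2 the lowest. A level in air replicate 2 as far above the other air libraries as that of Bnip3 was found in 0.21% of the genes that averaged at least 100 normalized counts, and the share was 0.35% for Ankrd37, 0.45% for Egln3, 0.62% for Slc16a3 and 0.85% for Pdk1. With CAP replicate 2 and air replicate 2 both left out, a choice made after the data were seen, 28 of the 31 genes had a positive log2 FC in place of 18, and Ankrd37, Bnip3 and Slc16a3 stood at 0.17, 0.27 and 0.42. For the 9 genes this rise was fixed in advance, since their lowest CAP library and highest air library were removed. The share of all genes with a positive value was not taken in that comparison, so no rise of the set can be read from it. No gene was called in that comparison.

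**Figure D4:**
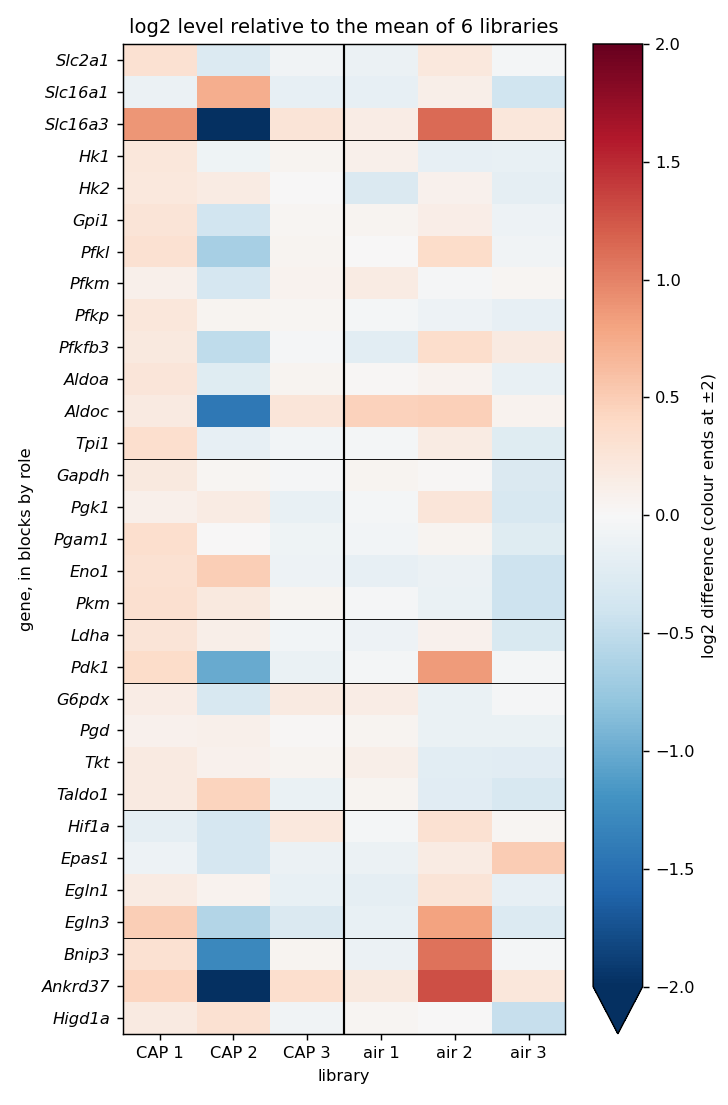
Levels of the 31 genes in each library. The colour gives the log2 level relative to the mean of the 6 libraries of the gene (red above, blue below, ending at -2 and 2), and the lines part the roles and the groups. The dark blue cells of CAP replicate 2 and the red cells of air replicate 2 mark Slc16a3, Pdk1, Bnip3 and Ankrd37, and all 5 genes of lower glycolysis are blue in air replicate 3.

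Markers of other cells and of cell division moved with the same library. The 12 proliferation genes summed to 18087 to 40931 normalized counts in CAP and 17660 to 18800 in air. All 12 were highest in CAP replicate 2, against 29.8% of all tested genes. All 12 also had a positive log2 FC, with a median of 0.70, which was 0.25 without CAP replicate 2. In 4 of the 12 every CAP library lay above every air library, against 8.44% of all tested genes. The 10 stromal markers summed to 53788 to 133893 in CAP and 131544 to 208272 in air, with 9 of the 10 lowest in CAP replicate 2. That library, in which Slc16a3, Ankrd37 and Bnip3 were lowest, thus stood apart in markers of dividing and of stromal cells as well. The 6 smooth muscle markers summed to 5955 to 17326 in CAP and 4959 to 8904 in air, with 5 of the 6 highest in CAP replicate 2. The 10 macrophage markers, led by the lysozyme gene Lyz2, summed to 444071 to 543341 in CAP and 604122 to 641816 in air, so that these sums did not overlap. Gene by gene, 9 of the 10 had a negative log2 FC and 1 a positive one. Every CAP library lay below every air library in 3 of them, against 8.46% of all tested genes. The 8 neutrophil markers summed to 324 to 438 in CAP and 261 to 481 in air, with the defining Ly6g at 0 in all libraries, and the 7 erythroid and megakaryocyte markers summed to 3074 to 6791 in CAP and 8719 to 10528 in air, with Alas2 and Hbb-bs at 0. The median level of these 7 went the other way, at 16.2 normalized counts per kilobase in CAP and 2.91 in air. The part of any of these in the levels of the 31 genes was not tested.

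**Figure D5:**
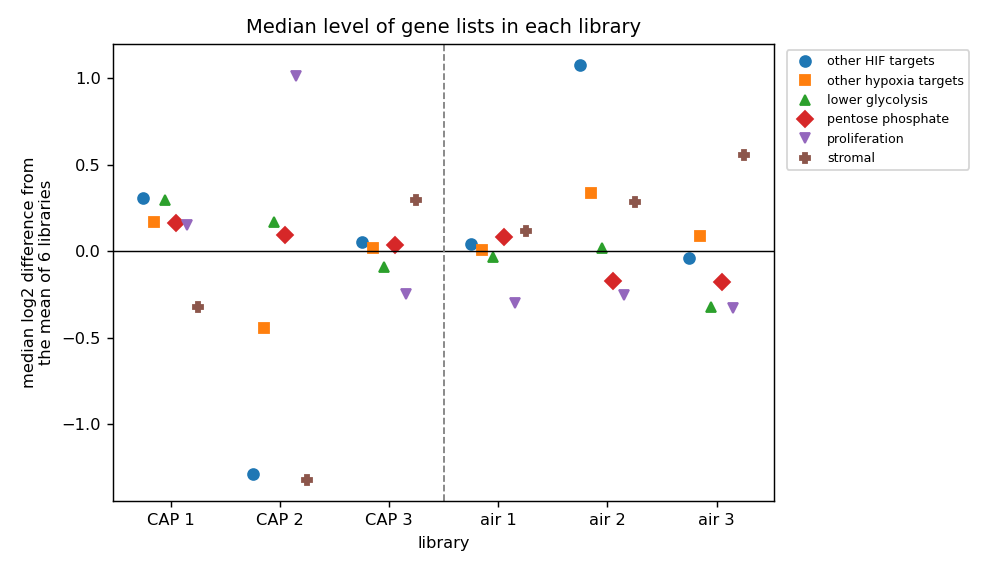
Median level of 6 gene lists in each library. The y axis is the median over the list of the log2 level relative to the mean of the 6 libraries, and each symbol is 1 list in 1 library. CAP replicate 2 has the lowest medians of the other HIF targets (Bnip3, Ankrd37 and Higd1a) and of the stromal markers and the highest of the proliferation genes, and air replicate 2 the highest of the other HIF targets.

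Further genes of these pathways were read from the same comparison, and none passed the test by edgeR, DESeq2 or limma-voom. Of 24 other targets of hypoxia, 7 had a positive and 17 a negative log2 FC, with a median of -0.22, which was 0.021 without CAP replicate 2. In 11 of the 24 (45.8%) CAP replicate 2 was the lowest and air replicate 2 the highest library, the order seen for Bnip3 and Ankrd37. The 3 of lowest p were Mif, a cytokine (log2 FC 0.42, SE 0.13), Plod2, a collagen lysyl hydroxylase (-0.55, SE 0.18), and Pgf, placental growth factor (-0.70, SE 0.23). Bnip3l, the closest relative of Bnip3, had 1761, 1612 and 1910 normalized counts in CAP, against 2073, 3022 and 2304 in air, without overlap, and was chosen after its values were seen. Ndufa4l2, which dampens mitochondrial complex I and was likewise picked for its values, was at 0 in CAP replicate 2 and at 308 and 205 in the other two CAP libraries, against 169, 332 and 163 in air.

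Of 12 other regulators of HIF, 8 had a positive and 4 a negative log2 FC. The 3 of lowest p were Elob, the elongin B of the ligase that degrades HIF (0.43, SE 0.13), Hif3a, another alpha subunit (-1.10, SE 0.54), and Vhl, the substrate receptor of that ligase (-0.28, SE 0.16). Of 28 other isoforms and regulators of glycolysis, 24 were tested, 12 with a positive and 12 with a negative log2 FC. The 3 of lowest p were Ldhb, the lactate dehydrogenase subunit that favours pyruvate (-0.66, SE 0.28), Pfkfb4 (0.46, SE 0.20) and the insulin-responsive glucose transporter Slc2a4, which held at most 36.6 normalized counts in any library. Ldhb had 823, 474 and 1183 normalized counts in CAP, against 1252, 1201 and 1470 in air. Every CAP library lay below every air library, as in 8.46% of all tested genes, but CAP replicate 3 stood just under air replicate 2. In its partner Ldha the groups overlapped.

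Of 12 genes of pyruvate dehydrogenase and pyruvate entry, 4 had a positive and 8 a negative log2 FC, led by Pdk4 (-0.44, SE 0.19), Pdk2 (-0.72, SE 0.36), 2 kinases of the same family as Pdk1, and Dlat, the acetyltransferase subunit (0.30, SE 0.15). Of 11 other pentose phosphate genes, 10 were tested, 4 with a positive and 6 with a negative log2 FC, led by Prps2 (-0.41, SE 0.14) and Prps1 (0.59, SE 0.26), which make the activated ribose for nucleotides, and the epimerase gene Rpe (-0.30, SE 0.17). Of the genes named from these further lists, DESeq2 without CAP replicate 3, a choice made with the data in view, called Pfkfb4 higher, as it did 2.93% of all genes it tested, and Ldhb, Pgf, Pdk4, Plod2 and Pdk2 lower, as it did 2.53%, with adjusted p-values from 0.0101 (Ldhb) to 0.0488 (Pdk2).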

How the data were processed

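Per the labels and the methods of the study, the authors prepared stranded poly-A libraries and obtained single-end reads, which STAR 2.6 placed on mm10 and HTSeq 0.10.0 turned into counts per gene. The deposited table holds these raw counts for each mouse. Annotation release, strand setting and handling of multi-mapped reads: not given in the sources used here. Overlapping genes and near-identical copies are therefore uncertain. Gene names, coordinates and exon lengths came from GENCODE M21 (GRCm38), which holds 21939 of the 21965 IDs. A second row named Aldoa, a readthrough model, was not used. The miRNA libraries and qRT-PCR of the study were not analysed here.

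Size factors were taken by RLE. Genes with fewer than 10 counts in total were dropped. CAP was set against air over all 6 libraries in 1 fit with edgeR 4.0.16 (quasi-likelihood test, R 4.3.3), with Benjamini-Hochberg adjustment over the 14792 genes tested and a threshold of 0.05. The standard error (SE) was derived as the absolute log2 FC over the square root of F. DESeq2 1.42.0, limma-voom (limma 3.58.1), TMM, other count filters, the replicate number as a block and the omission of each library were alternatives. The spread between mice was a common biological coefficient of variation of 26.3%, fitted as 1 value over all genes tested. The values per gene had a median of 17.2% among the 31 genes and 20.8% among all genes tested. Among tested genes averaging at least 100 normalized counts this median was 17.9%. Because each group shared a cage, p-values measure only the spread between these samples.

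The 31 genes, the further pathway lists and the markers were chosen with earlier results of these data known. The rule for names was all 31 genes, with full values for the 10 of lowest p, Gapdh, Hif1a and Epas1, and the 3 of lowest p in each further list. Genes given in full beyond it for their spread between libraries were chosen after their values were seen. Promoter windows came from RefSeq (GRCm38.p6).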

Additional observations from a re-analysis of the deposited data

How the results depend on the processing

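Under 16 alternatives none of the 31 genes was called, except Eno1 by DESeq2 without CAP replicate 3 (1 gene higher, log2 FC 0.62). Over all genes, 0 were called in either direction by edgeR under every setting run, leaving out each library in turn included, and by limma-voom over all 6 libraries, its one run. DESeq2 called 22 higher and 2 lower, 33 and 18 without CAP replicate 2, and 429 and 370 without CAP replicate 3; the cause was not tested. DESeq2 without these libraries, the older quasi-likelihood form and the comparison without CAP replicate 2 and air replicate 2 were chosen with the data in view. The replicate block, with the replicate numbers of the labels as pairs, called 0 genes. Same-numbered libraries deviated together with correlations of -0.021, 0.087 and 0.17, beside -0.20 to 0.11 for libraries of unlike number. These values cannot show whether libraries were paired. The labels name no pairs, and the column headers of the count table number some libraries otherwise than the labels.

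Of 31 log2 FCs, 14 kept their direction under all 16 alternatives and 17 changed sign at least once, in 44 of 496 values, none of them called. The number with a positive value was 13 to 21 when 1 library was left out and 28 without CAP replicate 2 and air replicate 2. When 1 library was left out, the log2 FC ranged from -0.19 to 0.10 for Slc2a1, -0.0033 to 0.51 for Slc16a1, -1.14 to 0.022 for Slc16a3, -0.19 to 0.11 for Gpi1, -0.37 to 0.070 for Pfkl, -0.19 to 0.013 for Pfkm, -0.078 to 0.16 for Aldoa, -0.081 to 0.19 for Tpi1, -0.058 to 0.22 for Pgk1, -0.078 to 0.15 for G6pdx, -0.017 to 0.21 for Egln1 and -0.65 to 0.16 for Egln3. Without CAP replicate 2 and air replicate 2 it was 0.21 for Slc2a1, 0.42 for Slc16a3, 0.17 for Gpi1, 0.22 for Pfkl, 0.092 for Pfkfb3, 0.18 for Pdk1, 0.019 for Hif1a, 0.37 for Egln3, 0.27 for Bnip3 and 0.17 for Ankrd37. DESeq2 without CAP replicate 2 gave 0.10 for Slc2a1, -0.0035 for Slc16a1, 0.021 for Slc16a3, 0.11 for Gpi1, 0.070 for Pfkl, 0.013 for Pfkm and -0.0016 for Pgk1, and without CAP replicate 3 0.023 for Slc2a1 and -0.078 for G6pdx. For G6pdx, limma-voom gave -0.00062 and the replicate block -0.00040.

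On unscaled normalized counts in place of counts per kilobase, the share of Hk2 was 19.1% in CAP and 17.3% in air, against 13.8% and 12.4% per kilobase, the share of Pfkp in air was 36.6% against 32.4%, and that of Aldoc in air was 4.71% against 2.94%.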
